A study of Homo sapiens with 6 samples.

Results

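The CEACAM family and genes of the intestinal epithelium were followed through 6 RNA sequencing libraries, as 10 of the 16720 named rows of a count table. They are 4 genes of the carcinoembryonic antigen cell adhesion molecule (CEACAM) family, CEACAM1, CEACAM5, CEACAM6 and CEACAM7, and 6 genes of the intestinal epithelium, GPA33, VIL1, CDX2, LGALS4, TFF3 and MUC13. The genes were chosen on earlier results of the same contrast, so their differences between groups are described below with no p-value. Whether one of them passed the test threshold is given as description only. The libraries are labelled Hep3B, an established human line from a hepatocellular carcinoma. A set of 3 libraries carried a control guide (sgControl, genotype given as WT) and 3 a guide against RFX6 (sgRFX6, genotype given as RFX6 knockout). RFX6 is a winged helix transcription factor known for its part in forming pancreatic islet cells. According to the methods, both guides were delivered in the lentiviral vector lentiCRISPRv2, cells were kept under puromycin, and clones grown from single cells were expanded, so a difference between groups cannot be told apart from a difference between clones. The table's column names give sg3 as the RFX6 guide and cas for the controls. Nothing in the labels says that the 3 libraries of a group came from separate cultures, and p-values then measure only the spread between these libraries, which may be technical.

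CEACAM proteins are immunoglobulin-like molecules of the cell surface that bind each other and their own kind between neighbouring cells. CEACAM5 (CEA), CEACAM6 and CEACAM7 are held in the membrane by a lipid anchor, whereas CEACAM1 spans the membrane and has a cytoplasmic tail that can carry inhibitory signals. In the intestine, CEACAM5, CEACAM6 and CEACAM7 are abundant on mature surface epithelium, and CEACAM5 is a serum marker of colorectal cancer. GPA33 is a surface antigen of intestinal epithelium, VIL1 bundles actin in microvilli, CDX2 is the caudal homeobox factor that sets intestinal identity, LGALS4 is a galectin of the gut, TFF3 is a secreted trefoil peptide of goblet cells, and MUC13 is a membrane mucin.

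The libraries held between 16730374 and 25070770 counts on named rows. RFX6 itself was at 5.64, 5.83 and 7.34 CPM (counts scaled to a common library size) in sgControl libraries 1, 2 and 3 and at 3.43, 3.71 and 3.50 CPM in the sgRFX6 libraries. The groups did not overlap, with a log2 fold change of -0.82 ± 0.26 (SE) that did not pass the test (edgeR adjusted p = 0.142). A guide can disrupt a protein without removing its RNA, so this level checks the labels only in part. Several defining markers of the labelled cell type were low. Of the hepatocyte markers, AFP averaged 2.03 ± 0.395 CPM (SD, n = 3) in sgControl, APOA1 1.06 ± 0.239 CPM and SERPINA1 9.14 ± 1.42 CPM, while the intestinal markers KRT20 and CDH17 averaged 248 ± 52.1 and 317 ± 34.7 CPM in the same libraries. Of the other 8 hepatocyte markers in sgControl, TTR, APOA2, AHSG and TF averaged 0.482 to 2.17 CPM, while ALB (20.2 ± 10.4 CPM), FGB (26.4 ± 6.92 CPM), APOB (66.6 ± 8.60 CPM) and HNF4A (151 ± 8.30 CPM) were higher. APOB and HNF4A are also made by enterocytes, and ALB and FGB are not known for that. The low AFP, APOA1, SERPINA1, TTR, APOA2, AHSG and TF go against the label. ALB and FGB were detected, but in every sgControl library they were lower than KRT20 and CDH17. Which line this is was not tested, and the cells are called here libraries labelled Hep3B.

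Summed over a list of 11 hepatocyte markers, the level was 262 to 309 CPM in sgControl and 213 to 229 CPM in sgRFX6. Most of this sum was HNF4A (151 ± 8.30 and 126 ± 14.5 CPM) and APOB (66.6 ± 8.60 and 27.1 ± 16.5 CPM), neither of them called. Apart from HNF4A, APOB and FGB, every marker of the list had a higher mean in sgRFX6. By edgeR 2 of the 11 tested markers rose (AFP and AHSG) and 1 fell (FGB). Over all tested genes, 1.92% were called higher and 1.81% lower, which is the share to set beside each list here. An intestinal list, of which 8 of 11 genes were in the table and 5 are among the 10 genes followed here, summed to 1287 to 2262 CPM in sgControl and 2004 to 2482 CPM in sgRFX6. Most of this sum was LGALS4, VIL1, CDH17 and KRT20. Of the 8, 3 were called higher (KRT20, GPA33 and CEACAM5) and 0 lower, and GPA33 and CEACAM5 are among the 10 genes. Stomach markers (8 of 10 in the table, 6 tested, 2 of them called and both higher) summed to 101 to 104 CPM in sgControl and 263 to 362 CPM in sgRFX6. Most of this sum was VSIG1, at 92.2 ± 0.806 and 298 ± 50.4 CPM, while ANXA10 (7.20 ± 2.93 and 3.78 ± 1.44 CPM) and MUC6 (0.903 ± 0.341 and 0.622 ± 0.170 CPM) had lower means in sgRFX6 and were not called, and PGC was at or under 3 counts in every library. Granulocytes, blood cells that carry CEACAM6 and CEACAM8, left little trace: 3 of 7 markers were in the table, they summed to 0.475 to 0.972 CPM in sgControl and 0.314 to 1.18 CPM in sgRFX6, and CEACAM8 and CSF3R were at or under 3 counts in every library. Fibroblast markers (7 of 7 in the table) summed to 52.8 to 62.0 CPM in sgControl and 21.5 to 56.2 CPM in sgRFX6, and 4 of 6 tested fell. Most of the sgRFX6 sum was LUM, which had a higher mean there (20.5 ± 4.16 and 31.6 ± 20.1 CPM) and was not called. COL3A1, among those that fell, was at 25.7 ± 2.37 and 0.0331 ± 0.0574 CPM. Exocrine pancreas markers (2 of 7 in the table) summed to at most 0.405 CPM and endothelial markers (4 of 5) to at most 19.7 CPM, with PRSS1 and KDR at the floor of 3 counts.

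**Figure D1:**
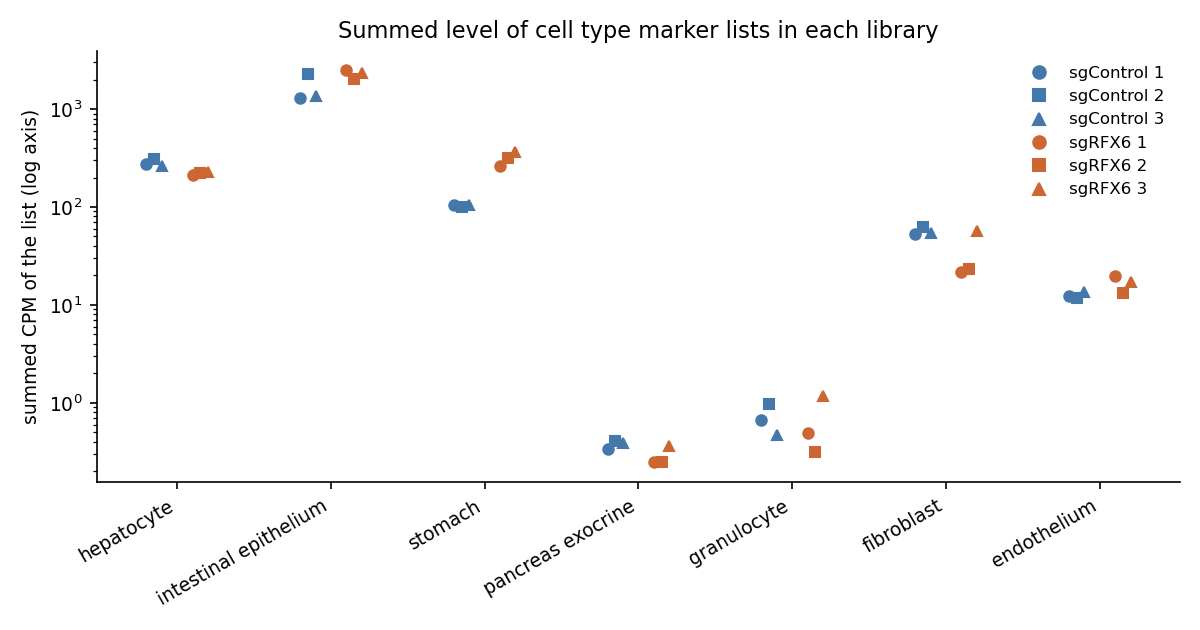
Summed CPM of 7 lists of cell type markers in each library, on a log axis, with sgControl in blue, sgRFX6 in orange and the symbol giving the replicate. The intestinal list was the highest in all 6 libraries, most of it LGALS4, VIL1, CDH17 and KRT20. The stomach list was higher in every sgRFX6 library (263 to 362 CPM) than in every sgControl library (101 to 104 CPM), most of it VSIG1. The lists differ in number and length of genes, so their sums do not rank cell types.

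In each group 1 library stood apart from the other 2. Counts of 2 libraries of a group were compared by chi-square per degree of freedom, larger where they differ more. For sgControl library 2 it was 89.7 and 72.3 against libraries 1 and 3, and 17.0 between those. For sgRFX6 library 3 it was 99.3 and 124 against libraries 1 and 2, and 18.8 between those. In sgControl library 2, 629 of the 12839 tested genes (4.90%) were at more than 2 times the level of both other controls, and 4 of the 10 genes were among them, CEACAM1, GPA33, CDX2 and LGALS4. This comparison was chosen after seeing the data. Results that rest on this library are given below with and without it. Libraries of a group also differed from one another in relation to GC content. For each gene, log2 CPM was taken as its deviation from the mean of its own group. Spearman correlations of these deviations with GC content across 12221 genes were -0.57, 0.41 and 0.05 in sgControl libraries 1 to 3. In sgRFX6 libraries 1 to 3 they were 0.65, 0.73 and -0.86. These correlations are relative within a group and do not compare the groups. The part of GC content in the values was not tested beyond a fit with GC offsets.

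The 4 CEACAM genes lie on chromosome 19 and resemble one another, which bears on how reads can be assigned to them. In GENCODE 29 on GRCh38, CEACAM7 spans chr19:41673307-41706976 on the minus strand, CEACAM5 chr19:41708585-41729798 and CEACAM6 chr19:41750977-41772208 on the plus strand, and CEACAM1 chr19:42507304-42561234 on the minus strand. The coding sequences of CEACAM5 and CEACAM6 were identical at 89.1% of 1020 aligned bases, those of CEACAM1 and CEACAM6 at 87.9% of 1026 and those of CEACAM5 and CEACAM7 at 80.2% of 783. The longest runs without a mismatch between coding sequences are shown because a read must be longer than them, or pair with one outside them, to tell the genes apart. The first lies in exon 4 of the chosen transcript of both genes (chr19:41715698-41715762 in CEACAM5 and chr19:41762017-41762081 in CEACAM6, 65 bases), the next in exon 2 (chr19:42527106-42527176 in CEACAM1 and chr19:41756824-41756894 in CEACAM6, 71 bases) and the last in exon 3 (chr19:42522021-42522088 in CEACAM1 and chr19:41715085-41715152 in CEACAM5, 68 bases).
CEACAM5 and CEACAM6: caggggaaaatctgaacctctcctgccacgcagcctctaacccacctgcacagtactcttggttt
CEACAM1 and CEACAM6: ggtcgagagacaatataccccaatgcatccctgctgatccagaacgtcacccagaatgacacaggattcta
CEACAM1 and CEACAM5: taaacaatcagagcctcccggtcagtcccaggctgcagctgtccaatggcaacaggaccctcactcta
Of all 50-base windows of the CEACAM5 transcript, 1.42% were found without a mismatch in a CEACAM6 transcript, 0.743% in a CEACAM1 transcript and 3.26% in a transcript of any other CEACAM gene or pregnancy-specific glycoprotein (PSG) gene. For CEACAM6 the share in any of these other genes was 4.60%, and for CEACAM1 it was 4.15%. At 100 bases CEACAM1 had 0.526% of such windows and the others 0, and at 150 bases all 4 had 0. The read length is not given in the sources used here. CEACAM5 and CEACAM6 also share 544 and 172 exonic bases with another gene of the same strand (AC243967.1), and CEACAM1 shares 185 with the antisense gene LIPE-AS1.

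The stretch just upstream of the RefSeq starts of CEACAM5 and CEACAM6 is shown because both hold the E-box CACGTG at nearly the same place. A 250-base window before the start was searched on both strands in the 8 of the 10 genes that have a promoter in the RefSeq set (GRCh38.p14). The E-box was found in CEACAM6, 45 bases before the start, in CEACAM5, 46 bases before it, and in none of the other 6. It occurs in 6.34% of all 35116 promoters of that length, and it was picked after seeing the data. Capitals mark CACGTG, or in CEACAM7 and CEACAM1 the bases aligned with it, and each line gives 30 bases 5′ to 3′ on the gene's strand (CEACAM6 chr19:41755473-41755502, CEACAM5 chr19:41708568-41708597, CEACAM7 chr19:41688297-41688326, CEACAM1 chr19:42528505-42528534).
CEACAM6: gcacccatgaccCACGTGaccctgggaaat
CEACAM5: acacccatgaccCACGTGatgctgagaagt
CEACAM7: ccacccctggacCATGTGatcttggaaagt
CEACAM1: cccgccccagcaCACATGatcagacaaagc
CEACAM5 matched CEACAM6 at 25 of these 30 bases, CEACAM7 at 21 and CEACAM1 at 13. Some or all of the bases fall inside exons of other GENCODE transcripts of the same strand. Over the whole 250 bases, CEACAM5 was identical to CEACAM6 at 78.1% of aligned bases and to CEACAM7 at 84.0%. Of 3 other motifs, all searched on both strands, TTTAT, letters bound by caudal homeobox factors such as CDX2, was in CEACAM5, CEACAM6 and CDX2 (32.7% of all promoters), TGTTTAC, a forkhead core, was in CDX2 (2.98%), and GTTGCC, an RFX half-site, was in none of the 8 (10.2%). None of these letters overlaps the E-box. A match is a description of letters and no evidence of binding.

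CEACAM5 and CEACAM6 were the CEACAM genes with the largest differences. CEACAM6, which promotes adhesion and survival of epithelial tumour cells, reached 1830, 1141 and 2093 counts across the controls and 13087, 9674 and 20527 across the sgRFX6 libraries. Every sgRFX6 library was thus above every sgControl library. In bulk RNA, more cells making a transcript and more of it per cell cannot be told apart. In CPM, scaled by edgeR's TMM factors, the means were 74.9 ± 24.9 and 730 ± 176 (SD, n = 3 each), a ratio of 9.75 and a log2 fold change of 3.29 ± 0.31 (SE). CEACAM5, the antigen measured in serum, gave 11, 13 and 22 counts under sgControl and 354, 156 and 388 under sgRFX6. These groups did not overlap either, and the control libraries stood a little above the floor of 3 counts. The means were 0.669 ± 0.243 and 15.004 ± 4.50 CPM, a ratio of 22.4 and a log2 fold change of 4.48 ± 0.39. Leaving out each library in turn gave 3.03 to 3.48 for CEACAM6 and 4.32 to 4.84 for CEACAM5.

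Within each library, CEACAM5 counts made up 0.601%, 1.14% and 1.05% of CEACAM6 counts in sgControl and 2.70%, 1.61% and 1.89% in sgRFX6. The ratio was higher in all 3 sgRFX6 libraries than in any control, a comparison that was added after seeing the data and rests on 11 to 22 CEACAM5 counts in the controls. The part of reads shared between the genes in these counts was not tested. With the 8 CEACAM rows of the table summed to 1 row, the sums were 2946, 3843 and 3302 under sgControl and 15375, 11079 and 22652 under sgRFX6, and the log2 fold change was 2.50.

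**Figure D2:**
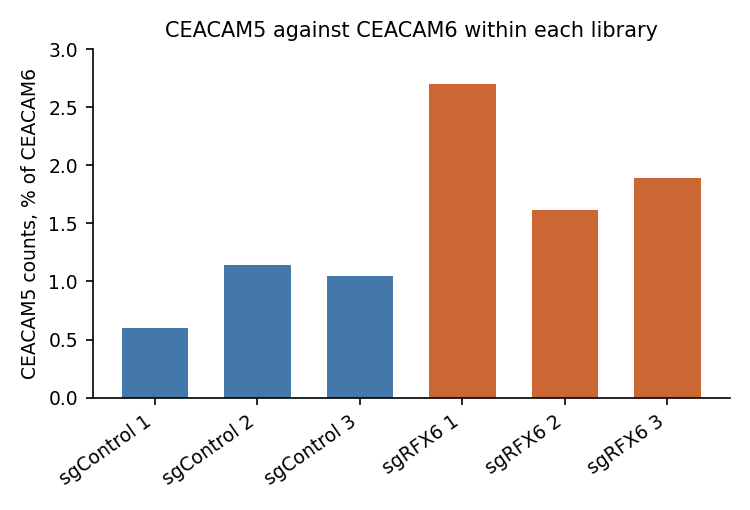
CEACAM5 counts as a percentage of CEACAM6 counts in each of the 6 libraries, as bars from 0. The 3 sgControl bars end between 0.601% and 1.14% and the 3 sgRFX6 bars between 1.61% and 2.70%.

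The groups overlapped for CEACAM1, and CEACAM7 could not be compared. CEACAM1, the family member with signalling tails, gave 994, 2562 and 1059 counts under sgControl and 1835, 1163 and 1652 under sgRFX6. In CPM, sgControl library 2 was the highest of the 6. The means were 65.8 ± 32.9 and 79.8 ± 9.91 CPM, with a log2 fold change of 0.28 ± 0.31 that became 0.77 without sgControl library 2. CEACAM7, a marker of mature colonic epithelium, gave only 1, 1 and 0 counts under sgControl and 0, 1 and 1 under sgRFX6. It was at the floor in every library, was removed by the filter on low counts and has no fold change, so no difference was detectable at this depth.

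Both surface proteins outside the CEACAM family were higher in sgRFX6. GPA33, an immunoglobulin-like antigen of intestinal cells (chr1:167052836-167166479, minus strand), gave 6, 21 and 2 counts under sgControl and 261, 39 and 139 under sgRFX6. The groups did not overlap, and their nearest libraries were sgControl library 2 at 0.851 CPM and sgRFX6 library 2 at 2.45 CPM. The means were 0.409 ± 0.396 and 7.24 ± 5.32 CPM and the log2 fold change was 4.11 ± 0.80, which had the largest error of the 9 genes fitted. MUC13, the membrane mucin (chr3:124905442-124953819, minus strand), gave 950, 1953 and 912 counts under sgControl and 4135, 1837 and 3914 under sgRFX6. Scaled for depth, its groups did not overlap, at 54.8 ± 21.3 and 166 ± 46.1 CPM, with a log2 fold change of 1.60 ± 0.31. The adjusted p of GPA33 and of MUC13 passed 0.05 with all 6 libraries and did not without sgControl library 1, without sgControl library 3 or without sgRFX6 library 1. Their log2 fold changes were then 3.92, 3.65 and 3.39 for GPA33 and 1.49, 1.44 and 1.42 for MUC13, and without sgControl library 2 they were 5.26 and 1.96.

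The actin bundler and the homeobox factor were not higher. VIL1 (chr2:218419092-218453295, plus strand) gave 7265, 13935 and 10273 counts under sgControl and 6414, 4928 and 5983 under sgRFX6. All sgRFX6 libraries were below all controls, at 300.02 ± 24.9 against 453 ± 107 CPM, with a log2 fold change of -0.59 ± 0.21 that did not pass the threshold and was -0.41 without sgControl library 2. VIL1 shares 3045 exonic bases with USP37 on the opposite strand, and whether counting used strand is not given in the sources used here. USP37 itself was at 9.05 to 20.2 CPM. CDX2 (chr13:27962137-27971139, minus strand) gave 408, 1440 and 449 counts under sgControl and 653, 355 and 382 under sgRFX6. Its groups overlapped and sgControl library 2 was the highest of the 6. The log2 fold change of CDX2 was -0.43 ± 0.45 over all libraries and 0.30 without sgControl library 2, so that 1 library set its sign.

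LGALS4 did not separate the groups. The counts of LGALS4 (chr19:38801671-38813364, minus strand) were 7533, 23881 and 8897 under sgControl and 15949, 9509 and 10138 under sgRFX6. Again sgControl library 2 was the highest and the other controls were the lowest. The means were 571 ± 343 and 617 ± 167 CPM, with a log2 fold change of 0.11 ± 0.39 that was 0.72 without sgControl library 2, -0.13 without sgControl library 1, -0.10 without sgControl library 3 and -0.11 without sgRFX6 library 1. TFF3 (chr21:42311667-42315651, minus strand) gave 28, 41 and 20 counts under sgControl and 55, 49 and 56 under sgRFX6. Every sgRFX6 library was above every control, at 2.79 ± 0.272 against 1.29 ± 0.402 CPM. The log2 fold change of TFF3 was 1.10 ± 0.35, which did not pass the threshold with the main fit, and it ranged from 0.91 to 1.33 when each library was left out.

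**Figure D3:**
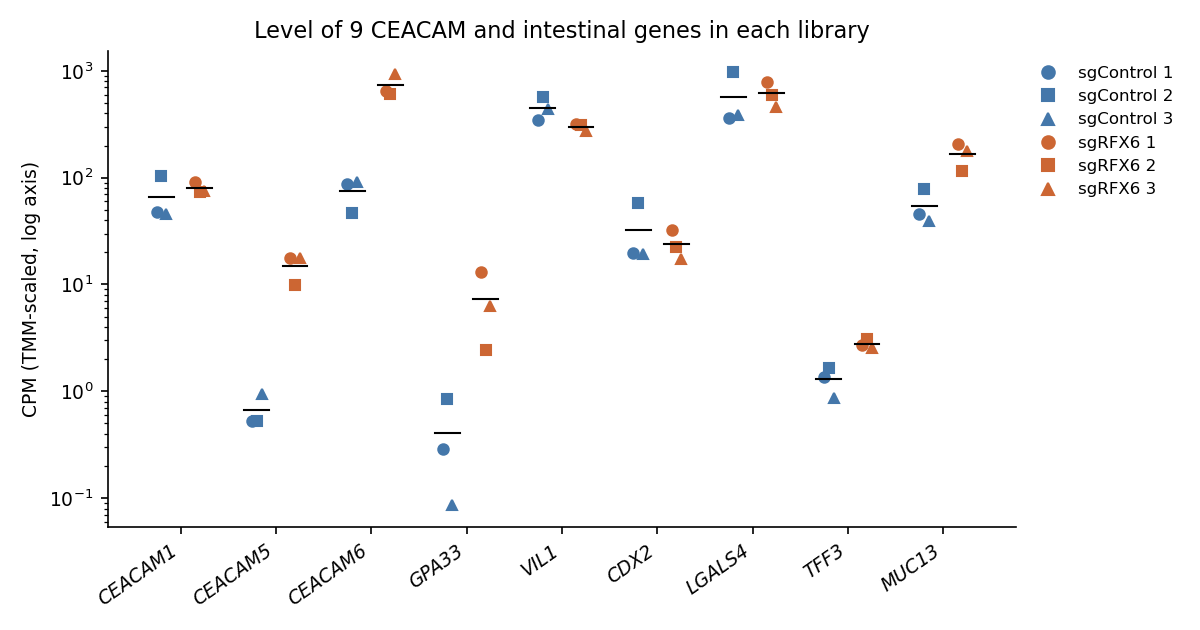
CPM of the 9 genes that passed the filter, on a log axis, with 1 symbol per library, sgControl in blue and sgRFX6 in orange, and a black line at each group's mean. CEACAM5, CEACAM6, GPA33, TFF3 and MUC13 had all sgRFX6 points above all sgControl points, and CEACAM1, CDX2 and LGALS4 had sgControl library 2 (blue square) as the highest point.

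Of the 10 genes, 9 passed the filter on low counts, and CEACAM7 did not. By edgeR, 4 of the 9 had an adjusted p under 0.05, all of them higher in sgRFX6, and 0 were lower. Over all 12839 tested genes the share called was 3.74%, with 1.92% higher and 1.81% lower in sgRFX6, and a total of 2000 genes had an unadjusted p under 0.05. Without overlap between groups, 5 of the 9 were higher and 1 was lower, against 12% and 11.2% of all tested genes. Since the genes were chosen on this contrast, nothing is read from these counts. The median log2 fold change of all tested genes was 0.02.

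**Figure D4:**
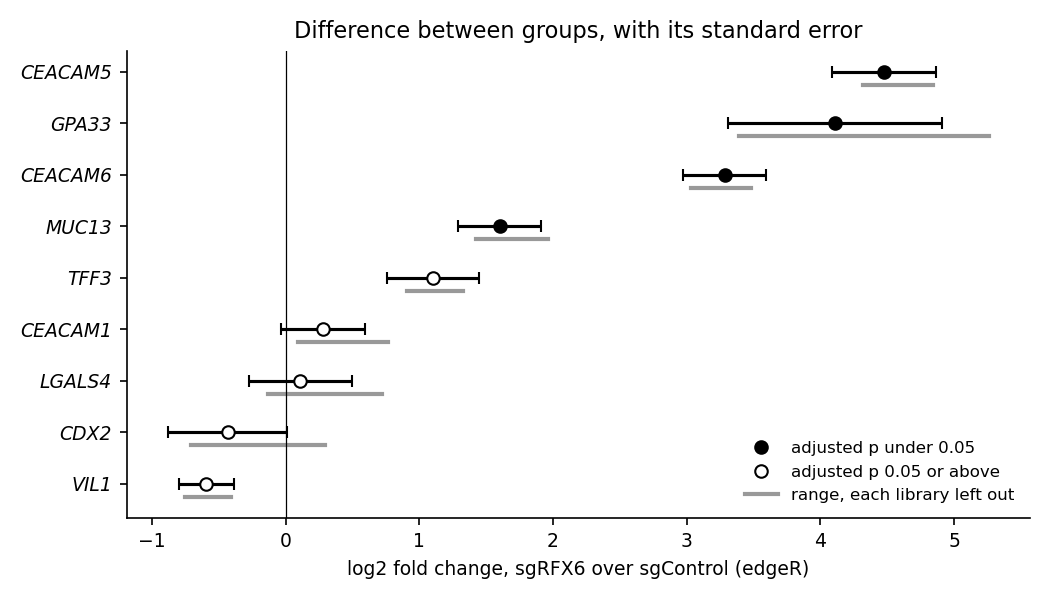
Log2 fold change of sgRFX6 over sgControl for the 9 fitted genes, with its standard error as black bars, filled points for an adjusted p under 0.05 and a grey bar for the range when each library is left out. CEACAM5 (4.48), GPA33 (4.11), CEACAM6 (3.29) and MUC13 (1.60) have filled points, and the grey bars of LGALS4 and CDX2 cross 0.

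Levels were compared between genes as CPM per kb of transcript. In sgControl the order was LGALS4 (372 ± 223), VIL1 (69.3 ± 16.5), CEACAM6 (27.7 ± 9.22), MUC13 (19.0 ± 7.41), CEACAM1 (18.7 ± 9.35), CDX2 (8.01 ± 5.53), TFF3 (1.16 ± 0.362), CEACAM5 (0.233 ± 0.0847), GPA33 (0.146 ± 0.141) and CEACAM7 (0.0119 ± 0.0104 CPM per kb, SD, n = 3). The libraries of CEACAM6, MUC13, CEACAM1 and CDX2 overlapped from each gene to the next in that order, as did those of CEACAM5 and GPA33. In sgRFX6 the order was LGALS4 (402 ± 109), CEACAM6 (270 ± 65.3), MUC13 (57.7 ± 16.0), VIL1 (45.9 ± 3.81), CEACAM1 (22.7 ± 2.82), CDX2 (5.93 ± 1.90), CEACAM5 (5.22 ± 1.57), GPA33 (2.58 ± 1.90), TFF3 (2.51 ± 0.245) and CEACAM7 (0.0145 ± 0.0130). CEACAM6 was below VIL1 in every control library and above it in every sgRFX6 library. LGALS4 and CEACAM6 overlapped in sgRFX6, as did MUC13 and VIL1, and CDX2, CEACAM5, GPA33 and TFF3 each overlapped the next.

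Neighbours on the chromosome were looked at for each gene. The nearest tested gene before CEACAM5, ATP5SL, had a log2 fold change of -0.12 (edgeR adjusted p = 0.872), and the one after CEACAM6, RPS19, had -0.03 (edgeR adjusted p = 0.967). No tested gene lay between CEACAM5 and CEACAM6. The nearest 50 tested genes of either one include the other of the pair, span 2.99 Mb and had a median log2 fold change of -0.005. Of these 50, 2 were called, with the other of the pair among them, against 3.74% of all tested genes. CEACAM1 lies between LIPE (-0.53, edgeR adjusted p = 0.892) and PSG5 (-2.91, edgeR adjusted p = 0.09). GPA33 lies between TADA1 (-0.05) and POU2F1 (-0.13), VIL1 between CTDSP1 (-0.05) and USP37 (-0.11), CDX2 between PDX1 (2.14) and PAN3 (0.004), LGALS4 between LGALS7B (-0.84) and ECH1 (-0.20), TFF3 between ABCG1 (0.98) and TFF2 (1.67), and MUC13 between ITGB5 (0.02) and HEG1 (-0.30), none of which passed the test. The medians of the nearest 50 genes lay between -0.14 for VIL1 and 0.42 for MUC13, which compares with 1.60 for MUC13 itself.

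The genes whose log2 CPM followed CEACAM5 most closely over the 6 libraries, among 11437 genes, were TMC5 (Pearson r = 0.996), XRRA1 (0.994), TNFRSF11A (0.993), BCL2L15 (0.993) and SULT1C4 (0.991). These correlations describe points that fall into 2 groups of libraries, and CEACAM5 was chosen on the difference between these groups. All genes of a library also share its depth and its GC trend. SULT1C4, a cytosolic sulfotransferase, was at 1.35, 2.19 and 1.94 CPM in sgControl and 33.6, 20.9 and 32.1 CPM in sgRFX6, with sgRFX6 library 2 the lowest of its group as for CEACAM5. TMC5, a transmembrane channel-like protein, averaged 1.19 ± 0.231 and 8.55 ± 1.13 CPM. TNFRSF11A, the receptor of the cytokine RANKL, averaged 1.83 ± 0.165 and 6.55 ± 0.915 CPM. BCL2L15 averaged 3.34 ± 0.384 and 8.58 ± 1.45 CPM and XRRA1 8.998 ± 1.13 and 18.1 ± 1.87 CPM.

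The wider families and the intestinal programme around the 10 genes were taken from 9 lists of 183 genes, of which 143 were in the table and 108 were tested. These genes were not chosen gene by gene for their change, but the lists were written with earlier results of this contrast known. By edgeR, 13 of the 108 rose and 5 fell, or 16.7% against 3.74% of all tested genes, with a median log2 fold change of 0.27 against 0.02. Without overlap between groups, 39 of the 108 were higher and 14 lower, where 12% of all tested genes were higher and 11.2% lower.

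**Figure D5:**
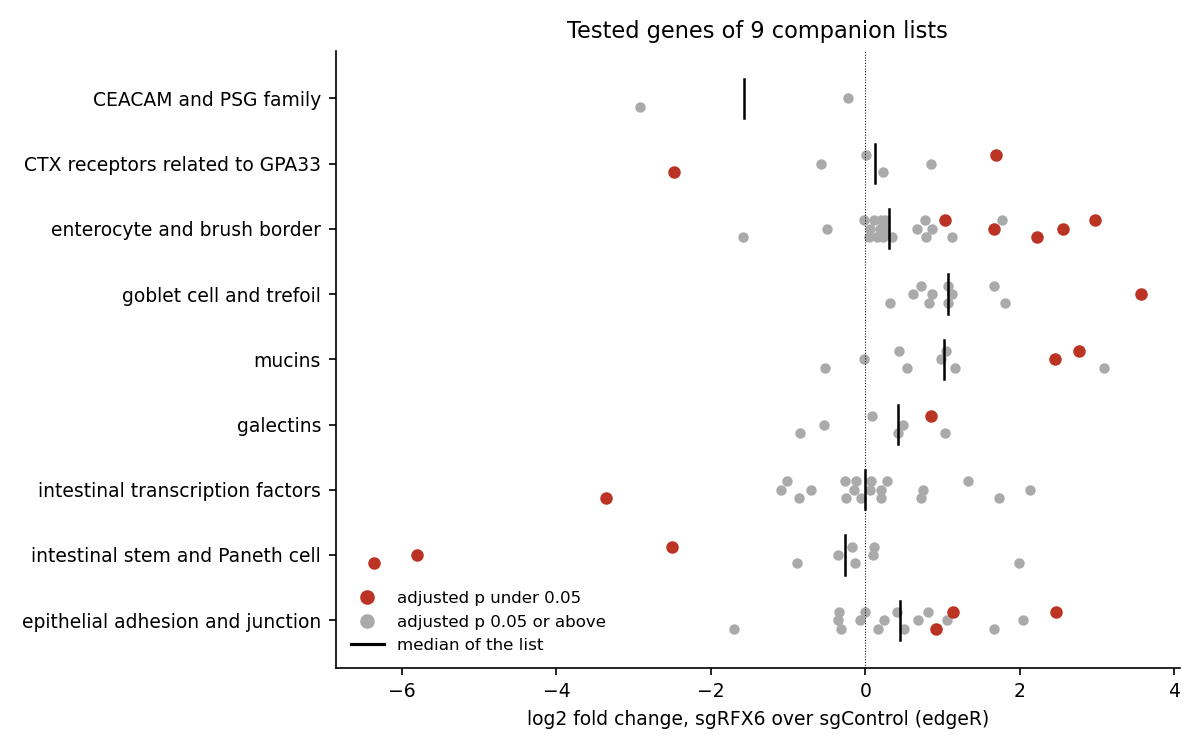
Log2 fold change of sgRFX6 over sgControl for the tested genes of the 9 lists, with genes at an edgeR adjusted p under 0.05 in red, the others in grey and a black line at each list's median. The 3 red points of the stem and Paneth cell list lie between -6.36 and -2.51, and the red points of the enterocyte, goblet, mucin, galectin and junction lists all lie above 0.

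In the CEACAM and PSG list, 12 of 18 genes were in the table, 2 were tested and 0 were called. CEACAM19, the more abundant of the pair, averaged 5.17 ± 0.277 CPM in sgControl and 4.44 ± 0.735 in sgRFX6, with a log2 fold change of -0.22 (edgeR adjusted p = 0.783). The other is PSG5, given above, whose counts were 158 in sgControl library 2 and 3 to 45 in the other 5 libraries. Among 6 tested receptors related to GPA33, VSIG1, a junction protein of stomach epithelium, rose from 92.2 ± 0.806 to 298 ± 50.4 CPM (log2 fold change 1.69 ± 0.18, edgeR adjusted p = 0.00185). CXADR, the coxsackievirus and adenovirus receptor of tight junctions, fell from 15.3 ± 1.93 to 2.73 ± 1.10 CPM (-2.48 ± 0.33, edgeR adjusted p = 0.00449). F11R, a further junction protein, was at 52.5 ± 14.96 and 52.7 ± 10.8 CPM. The list's median log2 fold change was 0.12.

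Of the enterocyte and brush border genes, 5 of 24 tested rose (20.8%), 0 fell and 21 had a positive log2 fold change, with a median of 0.30. Over all 12839 tested genes, 3.74% were called and 6765 had a positive log2 fold change. KRT20, a keratin of differentiated intestinal cells, gave 5091, 7455 and 4585 counts under sgControl and 16105, 10475 and 20210 under sgRFX6. The groups did not overlap, and KRT20 rose by a log2 fold change of 1.67 ± 0.22 (edgeR adjusted p = 0.0043). TM4SF20, a tetraspan membrane protein, rose from 2.88 ± 1.11 to 22.8 ± 6.21 CPM (2.98 ± 0.36, edgeR adjusted p = 0.00329). SLC5A1, the sodium-glucose cotransporter of the brush border, rose from 0.261 ± 0.120 to 1.58 ± 0.281 CPM (2.57 ± 0.45, edgeR adjusted p = 0.0173) and CA2, a carbonic anhydrase, from 20.6 ± 1.76 to 42.1 ± 3.32 CPM (1.03 ± 0.19, edgeR adjusted p = 0.0206). SLC5A1 was not called without sgControl library 1, sgControl library 3 or sgRFX6 library 1, where its adjusted p reached 0.0772 at most. CA2 was called without sgRFX6 library 3 and lost when any of the other 5 libraries was left out, with an adjusted p of up to 0.119. CDH17, the liver-intestine cadherin and the most abundant gene not called, averaged 317 ± 34.7 and 505 ± 120 CPM (edgeR adjusted p = 0.142).

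Of 20 goblet cell and trefoil genes, 15 were in the table and 11 were tested. All 11 tested had a positive log2 fold change, where 6765 of all 12839 tested genes had one. SPINK4, ZG16, AGR3 and BEST2 were removed by the filter on low counts. SPINK4 gave 7, 11 and 8 counts under sgControl and 1, 1 and 0 under sgRFX6. The mean of ZG16 was also lower in sgRFX6, and those of AGR3 and BEST2 were higher. The list's median was 1.08 and 1 gene was called (9.09%, against 3.74% of all tested genes). It was REG4, a secreted lectin of goblet and enteroendocrine cells, which rose from 1.18 ± 0.702 to 14.2 ± 7.96 CPM (3.58 ± 0.57, edgeR adjusted p = 0.0104) and had an adjusted p of 0.0558 without sgControl library 3. AGR2, a folding enzyme needed for mucin, averaged 146 ± 19.1 and 320 ± 114 CPM (edgeR adjusted p = 0.0519). Of 10 tested mucins 2 rose (20%) and 0 fell, with a median of 1.02. MUC5AC, a gel-forming mucin of stomach and airway, rose from 1.41 ± 0.123 to 7.81 ± 3.54 CPM (2.46 ± 0.37, edgeR adjusted p = 0.00885) and had an adjusted p of 0.0516 without sgControl library 3. MUC17, a brush border mucin, rose from 0.312 ± 0.186 to 2.18 ± 1.05 CPM (2.77 ± 0.55, edgeR adjusted p = 0.0279) and was not called without sgControl library 1, sgControl library 3 or sgRFX6 library 1, with an adjusted p of up to 0.123. MUC5B averaged 12.9 ± 6.90 and 25.5 ± 1.79 CPM (edgeR adjusted p = 0.196). The stomach list, which also holds MUC5AC and VSIG1, was higher in all 3 sgRFX6 libraries, mostly through VSIG1 as given above, and its part in these values was not tested.

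Of 7 tested galectins, relatives of LGALS4, 1 was called (14.3%, against 3.74% of all tested genes) and the median log2 fold change was 0.42. LGALS3, which binds sugars of glycoproteins such as CEA, rose from 60.4 ± 4.65 to 109 ± 14.4 CPM (0.85 ± 0.17, edgeR adjusted p = 0.0288). LGALS3 was not called without any 1 control library or without sgRFX6 library 1, with an adjusted p of up to 0.166. LGALS1 was at 237 ± 91.1 and 164 ± 48.2 CPM (edgeR adjusted p = 0.472).

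Among the factors 1 gene was called, and in the stem and Paneth cell list the called genes fell. Of 20 tested intestinal transcription factors, relatives in function of CDX2, 10 had a positive log2 fold change and the median was 0.002. Of the 20, 1 was called, or 5%, which is near the 3.74% of all tested genes. PRDM1, a repressor active in the fetal gut, fell from 11.8 ± 3.58 to 1.13 ± 0.221 CPM (-3.36 ± 0.34, edgeR adjusted p = 0.00165), while ELF3, an epithelial ETS factor, was at 225 ± 54.1 and 275 ± 59.8 CPM. In the stem and Paneth cell list 3 of 10 tested genes were called lower (30%) and 0 were called higher. The median was -0.26, and 3 of the 10 had a positive log2 fold change. LYZ, 1 of these 3, was higher in every sgRFX6 library than in every control but was not called. It averaged 0.453 ± 0.250 and 1.84 ± 0.412 CPM (1.99 ± 0.46, edgeR adjusted p = 0.0526). TNFRSF19, a Wnt target receptor, gave 393, 536 and 474 counts under sgControl and 5, 4 and 5 under sgRFX6 (log2 fold change -6.36 ± 0.30, edgeR adjusted p = 8.84e-05). PLA2G2A, an antibacterial phospholipase of Paneth cells, gave 388, 1699 and 373 counts under sgControl and 12, 13 and 10 under sgRFX6 (-5.81 ± 0.68, edgeR adjusted p = 0.00288). LGR5, the marker of crypt base stem cells, fell from 26.4 ± 6.45 to 4.62 ± 1.34 CPM (-2.51 ± 0.31, edgeR adjusted p = 0.0034). CD44, a hyaluronan receptor, was at 229 ± 62.7 and 248 ± 19.2 CPM (edgeR adjusted p = 0.885).

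Of 18 tested adhesion and junction genes, 3 claudins rose and 0 fell, with a median log2 fold change of 0.46. The share called was 16.7%, against 3.74% of all tested genes. CLDN4, a barrier claudin, rose from 201 ± 26.4 to 377 ± 76.9 CPM (0.91 ± 0.20, edgeR adjusted p = 0.0439), CLDN1 from 12.5 ± 1.14 to 27.4 ± 5.28 CPM (1.13 ± 0.23, edgeR adjusted p = 0.0283) and CLDN3 from 0.171 ± 0.0733 to 0.983 ± 0.146 CPM (2.47 ± 0.47, edgeR adjusted p = 0.0221). CLDN1 and CLDN4 were each called without sgRFX6 library 3 and lost when any of the other 5 libraries was left out, with adjusted p of up to 0.128 and 0.188, and CLDN3 was lost without sgControl library 1, sgControl library 3, sgRFX6 library 1 or sgRFX6 library 2, with up to 0.105. KRT8, the keratin of simple epithelia, was at 6190 ± 516 and 6174 ± 1478 CPM (edgeR adjusted p = 0.996). Of the 18 called genes of the lists, 8 were called whichever library was left out: VSIG1, CXADR, KRT20, TM4SF20, PRDM1, LGR5, PLA2G2A and TNFRSF19.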

How the data were processed

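RNA of the libraries labelled Hep3B was read on an Illumina HiSeq. The deposited values are raw counts per gene for 3 sgControl and 3 sgRFX6 libraries, not normalised by the authors. The submitters' processing notes name GRCh38 (hg38). The aligner, counter, annotation, read length and strand setting are not given in the sources used here. Columns were assigned by name and replicate number, and cas was taken as sgControl, the only control group. A row without a name (at most 9.17e-05% of counts) was left out.

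Counts were fitted in R 4.3.3 with edgeR 4.0.16: filterByExpr (minimum count 10, minimum total 15), TMM factors, the quasi-likelihood test over all 6 libraries and Benjamini-Hochberg adjustment over 12839 genes at 0.05, with a common BCV of 0.269. Each standard error is the log2 fold change divided by the root of its F statistic. The procedure was tested on simulated data. CPM (counts scaled to one library size) uses TMM-scaled totals, and a library at or under 3 counts is at the floor. Log2 CPM used a prior count of 2. Counts are of PCR-amplified reads, so the floor covers counting error alone. SDs and standard errors also take in the spread between the 3 libraries of a group, which may be technical.

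The 10 genes and all lists were chosen with earlier results of these data known. Named are these genes, RFX6, the called genes of each companion list (the 4 of lowest p where more were called) with its most abundant gene not called, the 5 genes most correlated with CEACAM5 and the nearest tested neighbours. Others (the markers, USP37, LYZ and the goblet cell genes not tested) were named after their values were seen. Positions, lengths and transcripts came from GENCODE 29 (the longest basic coding transcript), where 15422 of 16721 row names matched by name and 276 by a RefSeq synonym. Promoters came from RefSeq GRCh38.p14. Alternatives were RLE factors, library size alone, DESeq2 1.42.0, limma-voom (limma 3.58.1) with quality weights, robust dispersion, 2 other filters, a replicate block, GC offsets (loess span 0.3), summed CEACAM rows and each library left out.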

Additional observations from a re-analysis of the deposited data

How the results depend on the processing

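Of 480 genes called, other settings gave 895 (DESeq2), 3998 (limma-voom with sample quality weights) and 1430 (GC content offsets), and leaving out each library gave 212 to 718. Of the 10 genes, 4 were called, 8 by limma-voom and 2 to 4 with each library left out. CEACAM5 and CEACAM6 were called in all 15 alternatives tried for them. These refit the same libraries on which the genes were chosen, so nothing is read from that count. Of the genes in the companion lists 18 were called, 35 by DESeq2, 70 by limma-voom, 45 with GC content offsets and 8 to 23 with each library left out. RFX6 passed the threshold with limma-voom (log2 fold change -0.96, adjusted p = 0.00274) and with GC content offsets (-0.85, adjusted p = 0.0462), and leaving out each library gave -0.89 to -0.67. TFF3 was called under the same pair of settings, and CEACAM1, LGALS4 and VIL1 with limma-voom only.

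The sign of CDX2 turned with limma-voom (0.51) and without sgControl replicate 2 (0.30), and that of LGALS4 without sgControl replicate 1 (-0.13), sgControl replicate 3 (-0.10) or sgRFX6 replicate 1 (-0.11). With each library left out CDX2 ranged from -0.71 to 0.30 and LGALS4 from -0.13 to 0.72. The cause of these changes was not tested. With the replicate number as a replicate block, 28 companion genes, 648 genes in all and 4 of the 10 were called, and RFX6 had a log2 fold change of -0.81. Deviations of same-numbered libraries correlated at -0.41, 0.17 and -0.09. Between libraries of different number they ranged from -0.45 (sgControl 1 with sgRFX6 2) to 0.57 (sgControl 1 with sgRFX6 3). What libraries share beyond a number was not tested. At these depths CEACAM7 could not be compared.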
